A study of Caenorhabditis elegans with 10 samples.

Results

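The hsp-16 genes of Caenorhabditis elegans encode small heat shock proteins, and 6 of them were followed here by ribosome profiling through stepwise cooling. They were taken by name, as hsp-16.1, hsp-16.11, hsp-16.2, hsp-16.41, hsp-16.48 and hsp-16.49, out of 19985 genes in the table, and where a gene had several transcripts the one with the highest mean level was used. All 6 had a mean of at least 1 FPKM (FPKM is the number of footprint counts per 1000000 of the condition, divided by the coding length in kilobases) and so were among the 9945 genes compared. The values of 2 pairs were the same in every condition, hsp-16.48 with hsp-16.49 and hsp-16.1 with hsp-16.11, so the 6 genes gave 4 distinct readings. Footprints within a pair cannot be assigned to either gene, and each pair is described together and counted once in sums.

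Small heat shock proteins carry the alpha-crystallin domain and bind unfolding proteins without using ATP, holding them in a state from which HSP70 chaperones can refold them. In C. elegans the hsp-16 genes are known as almost silent in unstressed animals and strongly induced by heat through the heat shock factor HSF-1, and their promoters serve as common reporters of heat stress. Their footprints in the cold were therefore read against a very low starting level.

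All animals were wild type (N2), synchronized, fed on the bacterial strain OP50 and profiled whole, starting as 1-day-old adults at 20°C. They were collected at 20°C, after a short time at 10°C, or after that step followed by days at 4°C (1, 3 or 5), with 2 replicate libraries in each of the 5 conditions. The labels give the 10°C step as 2 h in the protocol and as 3 h in the sample fields, and the fields of the day 5 samples name day 3 whereas their titles name day 5. The titles were followed. Collection at 20°C fell at the start of cooling, so cold, elapsed time and age cannot be told apart.

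The table held 1 value per condition, pooled by the authors from both libraries, so there is no spread between replicates and no test over them, and 1 pooled column was set against another throughout. Footprint counts recovered from the table summed to between 486109 at 10°C and 3058810 at day 5 of 4°C. A single recovered count on a 432-nt coding sequence gave 3.43 FPKM at 20°C and 4.76 FPKM at 10°C, but 0.871, 0.776 and 0.757 FPKM at 1, 3 and 5 days of 4°C. Intervals are 95% intervals for counting error only and leave out the spread between cultures. FPKM is a share of all footprints, so a fall in total translation cannot be seen, and in whole animals fewer cells of a type cannot be told apart from less RNA per cell. Of 18 tissue markers, 16 had footprints in every condition and the other two, rol-6 and ceh-22, in some.

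The 6 genes lie in 2 groups on chromosome V of WBcel235. The larger group spans 3312 nt and reads, from left to right, hsp-16.1 (9087293 to 9087782, minus strand), hsp-16.48 (9088131 to 9088617, plus), hsp-16.49 (9089280 to 9089766, minus) and hsp-16.11 (9090077 to 9090604, plus). The smaller group lies 7281 kb away and holds hsp-16.2 (1804334 to 1804957, minus) and hsp-16.41 (1805178 to 1805875, plus). In each group the genes form pairs that point away from each other, with 348 nt between the coding sequences of hsp-16.1 and hsp-16.48, 348 nt between those of hsp-16.49 and hsp-16.11, and 346 nt between those of hsp-16.2 and hsp-16.41. The larger group is thus a mirror image around its middle, and the genes of matching position are the ones whose readings were identical. Each gene has 2 exons with an intron of 46 to 58 nt. The coding sequences, stop codon included, are 438 nt in hsp-16.1, hsp-16.11 and hsp-16.2 and 432 nt in hsp-16.48, hsp-16.49 and hsp-16.41, so every divergent pair joins a longer and a shorter form. No annotated gene overlapped a member. Their identifiers are WBGene00002015 (hsp-16.1), WBGene00002017 (hsp-16.11), WBGene00002016 (hsp-16.2), WBGene00002018 (hsp-16.41), WBGene00002019 (hsp-16.48) and WBGene00002020 (hsp-16.49).

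**Figure D1:**
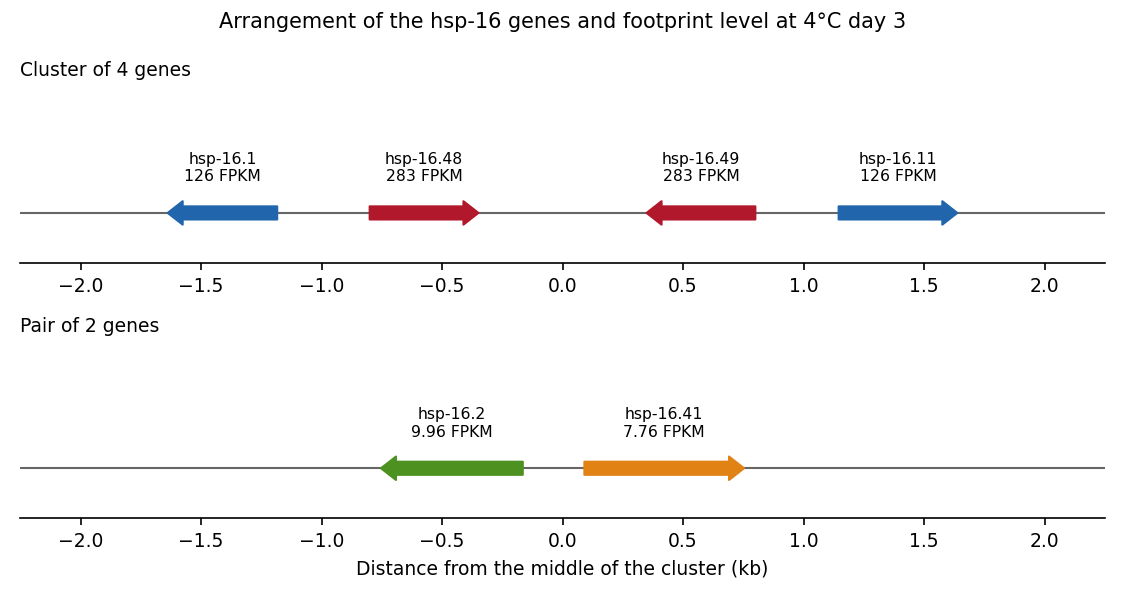
Arrangement of the hsp-16 genes, drawn to scale as distance in kb from the middle of each group, with arrows pointing along the direction of transcription. Labels give the footprint level at day 3 of 4°C, which was 283 and 126 FPKM for the readings of the 4-gene cluster and 9.96 and 7.76 FPKM for the pair of genes elsewhere on the chromosome.

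Footprints on the hsp-16 family were near the limit of detection at 20°C and 10°C, remained few on the first day at 4°C, rose about 20-fold between day 1 and day 3, and fell by about 3-fold towards day 5. Summed over the 4 readings, there were 5 family counts at 20°C and 3 at 10°C, followed by 25, 552 and 187 after 1, 3 and 5 days at 4°C. As counts per 1000000 of the column this was 7.401 (interval 2.40 to 17.3), 6.17 (1.27 to 18.0), 9.41 (6.09 to 13.9), 185 (170.0 to 201) and 61.1 (52.7 to 70.6). The intervals of the first 3 conditions overlapped, whereas those of day 3 and day 5 lay apart from them and from each other. Day 3 was 19.7-fold above day 1 (13.2 to 30.7) and 25.02-fold above 20°C (10.7 to 77.3). Day 5 was 3.03-fold below day 3 (2.56 to 3.59), still 6.499-fold above day 1 (4.27 to 10.3) and 8.26-fold above 20°C (3.48 to 25.7).

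**Figure D2:**
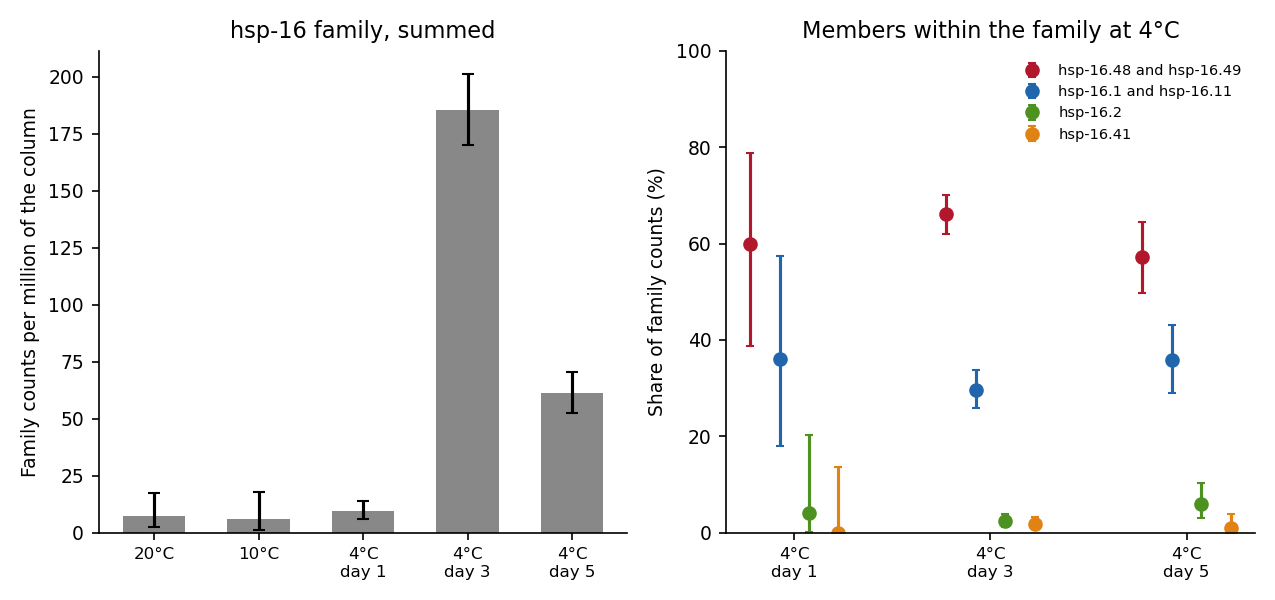
Left, summed hsp-16 counts per 1000000 of each pooled column, with bars from 0 and lines for 95% counting intervals, where day 3 stands at 185 and day 5 at 61.1, against 9.41 or less in the other conditions. Right, the percent of family counts on each reading at 4°C, with exact binomial 95% intervals, where the readings of the 4-gene cluster take 95.8% at day 3.

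The highest levels were those of hsp-16.48 and hsp-16.49, the shorter form in the 4-gene cluster. Their level was 3.43 FPKM at 20°C, 4.76 at 10°C, and 13.1, 283 and 81.0 FPKM after 1, 3 and 5 days at 4°C, resting on 1, 1, 15, 365 and 107 counts. The values at 20°C and 10°C are single recovered counts, and the level at day 3 was the highest of any member in any condition. From day 1 to day 3 the rise was 21.7-fold (12.98 to 39.2), and from day 3 to day 5 the level was 3.50-fold lower (2.81 to 4.38). Against 20°C, day 3 was 82.7-fold higher (14.8 to 3276) and day 5 23.6-fold higher (4.15 to 942), with a wide range because the starting value is 1 count.

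The longer form in the same cluster, hsp-16.1 and hsp-16.11, followed the same course at a lower level. It measured 10.1 FPKM at 20°C, 4.70 at 10°C, and 7.73, 126 and 50.01 FPKM after 1, 3 and 5 days at 4°C, on 3, 1, 9, 164 and 67 counts. The first 3 values had overlapping intervals, and the last 2 stood above all of them. Day 3 was 16.24-fold above day 1 (8.35 to 36.2) and 12.4-fold above 20°C (4.16 to 60.7). Day 5 was 2.51-fold below day 3 (1.88 to 3.39) and 4.93-fold above 20°C (1.62 to 24.5).

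The gene hsp-16.2, the longer form of the separate pair and the source of a widely used heat shock reporter promoter, was read at a far lower level. It held 3.38 FPKM at 20°C, 0 at 10°C, and 0.859, 9.96 and 8.21 FPKM after 1, 3 and 5 days at 4°C, on 1, 0, 1, 13 and 11 counts. Day 3 was 11.6-fold above day 1, with an interval from 1.74 to 493. Day 5 was 1.21-fold below day 3 (0.501 to 2.99), a ratio that these counts cannot tell from 1, and the ratio of day 3 to 20°C was 2.95 (0.442 to 125), which cannot be told from 1 either. Its second transcript, with a coding sequence of 384 nt, held 9 of the counts on day 3 and 9 on day 5.

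Its divergent partner hsp-16.41 had the lowest level on days 3 and 5. It held 0, 1, 0, 10 and 2 counts in the order of cooling, or 0, 4.76, 0, 7.76 and 1.51 FPKM, and the value at 10°C is 1 recovered count in the shallowest column. A count of 0 at 20°C allows a level of up to 10.3 FPKM at 3 counts, above the level on day 3, so no change from 20°C could be sized. Day 3 was 2.97-fold above the limit of 3 counts for the pooled day 1 column. The counting interval for day 3 against day 1, which also takes in the error of the day 3 counts, starts lower, at 2.00. Day 5 was 5.13-fold lower than day 3, with an interval from 1.09 to 48.2 on 2 counts.

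**Figure D3:**
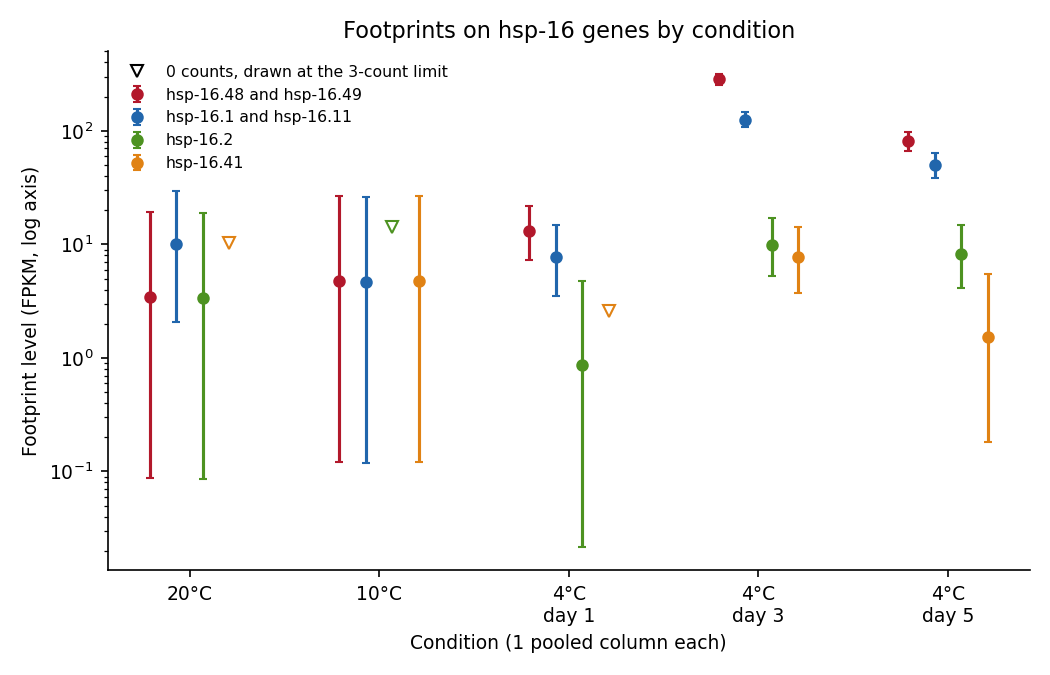
Footprint level of each hsp-16 reading in FPKM on a log axis by condition, with 95% counting intervals as lines and open triangles for readings of 0 counts, drawn at the level that 3 counts would give. All 4 readings were higher at day 3 than at day 1 of 4°C, and the intervals at 20°C and 10°C span more than 10-fold.

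Within the family the order of levels at day 3 was hsp-16.48 with hsp-16.49, hsp-16.1 with hsp-16.11, hsp-16.2 and hsp-16.41, and the same order held at day 5. The 4-gene cluster held 529 of 552 family counts at day 3, or 95.8% (exact binomial interval 93.8 to 97.3), and 174 of 187 at day 5, or 93.0% (88.4 to 96.2). Within that cluster hsp-16.48 and hsp-16.49 stood 2.26-fold above hsp-16.1 and hsp-16.11 at day 3 (1.87 to 2.73) and 1.62-fold at day 5 (1.18 to 2.23). On day 1 this ratio was 1.69 (0.693 to 4.38), so the order on that day was not resolved. Against hsp-16.2, of the same coding length, the reading of hsp-16.1 and hsp-16.11 stood 12.62-fold higher at day 3 (7.18 to 24.2) and 6.09-fold at day 5 (3.20 to 12.8). The reading of hsp-16.48 and hsp-16.49 was 36.5-fold above that of hsp-16.41 at day 3 (19.6 to 76.8). The neighbours hsp-16.2 and hsp-16.41 did not differ beyond counting error at day 3, with a ratio of 1.28 (0.519 to 3.27). At day 5 hsp-16.2 was 5.42-fold above hsp-16.41 (1.18 to 50.4). As a share of family counts, hsp-16.48 and hsp-16.49 held 66.1% at day 3 (62.0 to 70.1) and 57.2% at day 5 (49.8 to 64.4), and hsp-16.2 held 2.36% (1.26 to 3.99) and 5.88% (2.97 to 10.3). For each of these readings the intervals of both days overlap. Each cluster reading covers 2 gene copies, and how far footprints of one member also match another outside the identical pairs was not tested.

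For each step of cooling the question was which members changed and whether they changed alike. Calls were made at a 2-fold difference in FPKM + 0.5, and were clear when the change also rested on at least 10 counts over both columns and had an interval that left out 1. From 20°C to 10°C, 3 of the 4 readings were called, 1 higher and 2 lower, where 21.3% of all compared genes were called in either direction, and none was clear, where 0.925% of genes with enough counts were. Those 3 calls rest on at most 3 counts in a column, for example hsp-16.2 with 1 count against 0. From 10°C to day 1 at 4°C, 3 of the 4 readings were again called, hsp-16.48 with hsp-16.49 and hsp-16.2 higher and hsp-16.41 lower, where 32.4% of all compared genes were called in either direction. None was clear, where 10.9% of genes with enough counts were.

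The depth at 10°C limits that first step into the cold. For hsp-16.48 and hsp-16.49 the ratio of day 1 to 10°C was 2.74 (0.422 to 115.5), and for hsp-16.1 and hsp-16.11 it was 1.65 (0.228 to 72.2). At the level of day 1, the 10°C column would hold 2.74 and 1.65 counts of these readings, against the 1 count found for each. At the level of day 3 it would hold 59.5 and 26.7, so a level like that of day 3 would have been seen for the 4-gene cluster at 10°C. For hsp-16.2 and hsp-16.41 the day 3 level would give 2.12 and 1.63 counts at 10°C, under the limit of 3 counts, and such a level was not detectable. A rise of a few fold on the first day at 4°C was not detectable for any member.

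Between day 1 and day 3 at 4°C all 4 readings were called higher, where 5.38% of all compared genes were. All 4 were clear, where 2.52% of genes with enough counts were clearly higher. A shared reading does not show which gene of its pair rose. On the log2 scale the differences were 4.39 for hsp-16.48 and hsp-16.49, 4.05 for hsp-16.41, 3.94 for hsp-16.1 and hsp-16.11 and 2.94 for hsp-16.2. The value for hsp-16.41 rests on 0 counts on day 1 and is set by the pseudocount, at 6.30 with 0.1 FPKM and 3.13 with 1 FPKM in place of 0.5. In the order of all 9945 compared genes the other readings took places 7, 17 and 43 from the top, and the median of all genes was 0.04. The rises could not be told apart from each other. The ratio of hsp-16.48 and hsp-16.49 rose 1.34 times as much as that of hsp-16.1 and hsp-16.11, with an interval from 0.504 to 3.33, and that of the 4-gene cluster 0.958 times as much as that of the separate pair (0.0223 to 6.44).

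Between day 3 and day 5, 3 of the 4 readings were called lower and clear, all but hsp-16.2. The background was 14.7% of compared genes called lower and 9.67% of genes with enough counts clearly lower. On the log2 scale the differences were −2.04 for hsp-16.41, −1.80 for hsp-16.48 and hsp-16.49, −1.32 for hsp-16.1 and hsp-16.11 and −0.26 for hsp-16.2, against a median of −0.08. The fall of hsp-16.48 and hsp-16.49 exceeded that of hsp-16.2 by a factor of 2.89 (1.13 to 7.19). It exceeded that of hsp-16.1 and hsp-16.11 by a factor of 1.39, with an interval that includes 1 (0.958 to 2.02), and the falls of hsp-16.1 and hsp-16.11 and of hsp-16.2 differed by a factor of 2.07 (0.794 to 5.28). Of the 535 genes called higher from day 1 to day 3, 223 or 41.7% were called lower again by day 5.

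**Figure D4:**
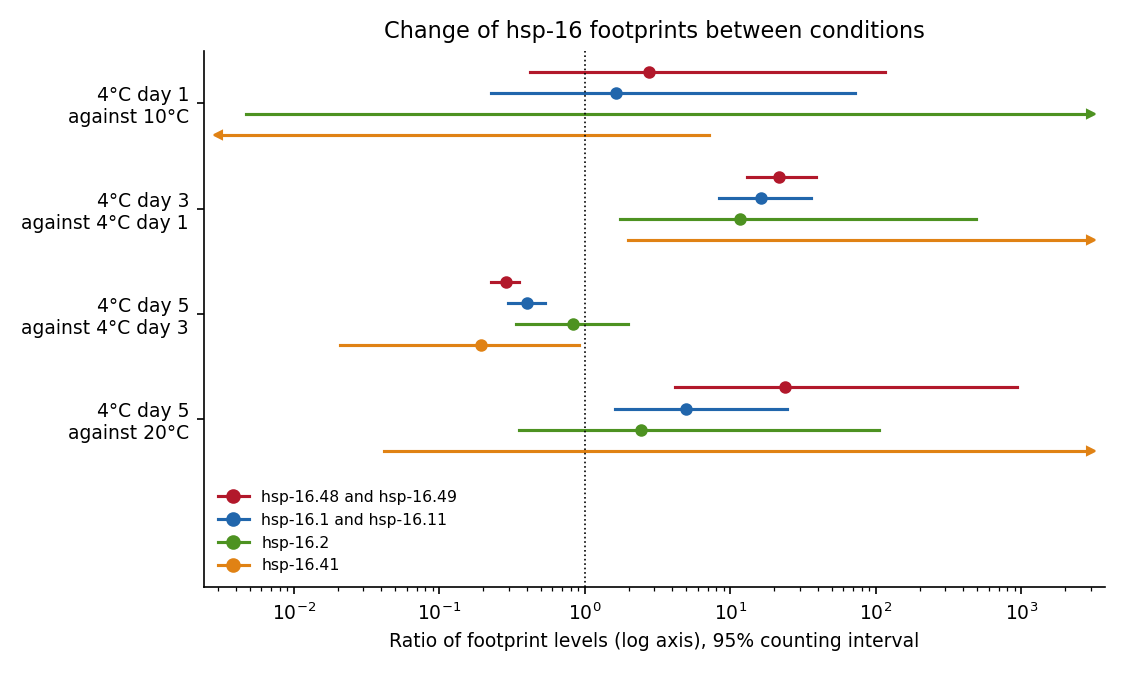
Ratio of footprint levels between conditions for each hsp-16 reading on a log axis, with 95% counting intervals as lines, arrows where an interval runs past the axis, and no point where a condition held 0 counts. The intervals for day 3 against day 1 all lie above 1, those for day 1 against 10°C all include 1, and for day 5 against day 3 only that of hsp-16.2 includes 1.

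Over the whole course, all 4 readings were called higher than at 20°C both on day 3 and on day 5. The background was high in these comparisons, with 23.2% of compared genes called higher on day 3 and 23.6% on day 5. Clear calls were limited to hsp-16.48 with hsp-16.49 and hsp-16.1 with hsp-16.11 at both times, where 13.8% and 16.7% of genes with enough counts were clearly higher. Both comparisons share the 20°C column.

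Genes around the clusters had few footprints. Of 12 genes annotated within 5 kb of a member, 5 had a row in the table and none of these reached a mean of 1 FPKM. On either side of the 4-gene cluster an snRNA gene, T27E4.11 and T27E4.10, lies 271 nt from the outermost hsp-16 gene. The nearest compared genes were looked up after the values had been seen. To the right of the separate pair, 5.47 kb from hsp-16.41, the uncharacterised Y46H3A.5 held 0, 0, 179, 8 and 14 counts in the order of cooling, a peak on day 1 where the neighbouring hsp-16.41 held 0 counts. To the right of the 4-gene cluster F21C10.10, 5.66 kb away, held 34.3, 40.4 and 15.4 FPKM on days 1, 3 and 5, a change under 2-fold from day 1 to day 3.

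Other small heat shock proteins were compared with the hsp-16 genes because they share the alpha-crystallin domain. From day 1 to day 3, 3 of 11 compared members were called higher, where 5.38% of all compared genes were, and none lower, with a median log2 difference of 0.68 against 0.04 over all genes. The 3 were hsp-17, hsp-12.6, a gene known as a target of the insulin signalling factor DAF-16, and hsp-12.3. The small heat shock gene hsp-17 measured 9.93, 0, 128, 658 and 303 FPKM in the order of cooling, so that, like hsp-16, it peaked on day 3. It differed on the first day, when it was 9.27-fold above the 3-count limit at 10°C, with a counting interval that starts at 7.45. From day 1 to day 3 it rose 5.14-fold (4.33 to 6.15), and the rise of the hsp-16 family was 3.83 times larger (2.46 to 6.18). Its fall to day 5 was 2.17-fold (1.93 to 2.45), and that of the hsp-16 family 1.39 times larger (1.13 to 1.72).

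The gene hsp-12.6 kept rising where hsp-16 fell. It measured 4.45, 0, 20.3, 124 and 253 FPKM in the order of cooling, 6.09-fold higher on day 3 than on day 1 (3.70 to 10.6) and 2.04-fold higher again on day 5 (1.64 to 2.56). The change of the hsp-16 family from day 3 to day 5 was 6.19-fold below that of hsp-12.6 (4.68 to 8.20). The much weaker hsp-12.3 rose 3.27-fold from day 1 to day 3 (1.29 to 9.85), and Y55F3BR.6, called higher on day 3 against 20°C, measured 21.4 FPKM at 20°C and 85.0 on day 3, 3.98-fold higher (2.17 to 8.10). The most abundant small heat shock protein gene, sip-1, known from embryos, stayed between 4089 and 6153 FPKM in all conditions, where hsp-16.48 and hsp-16.49 reached 283.

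**Figure D5:**
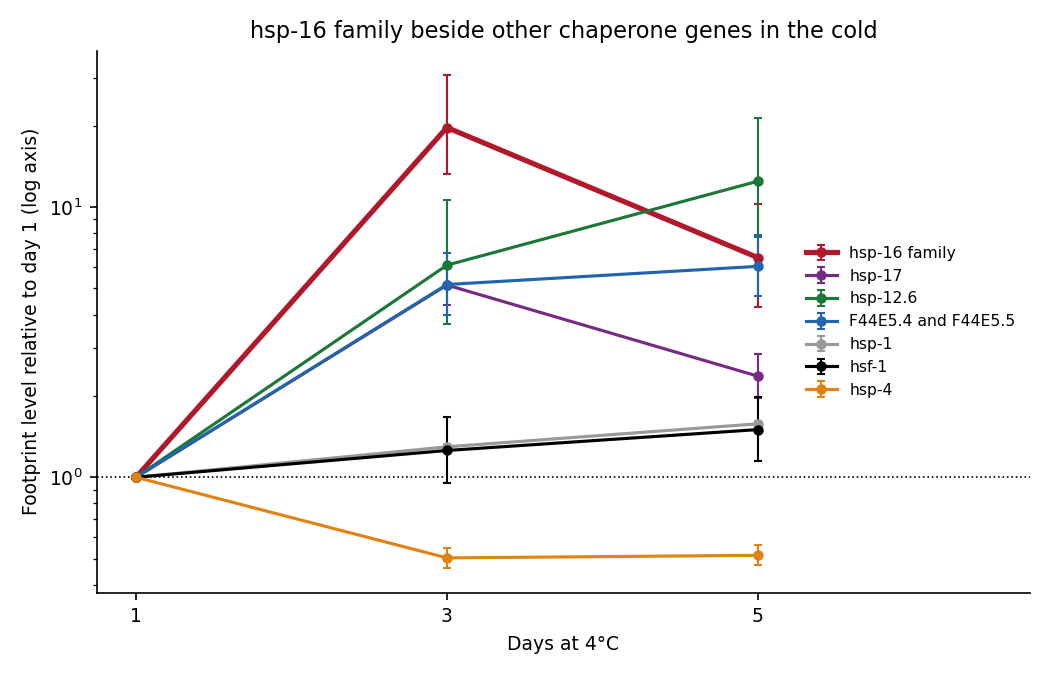
Footprint level relative to day 1 at 4°C on a log axis against days at 4°C, for the summed hsp-16 family and 6 other readings, with 95% counting intervals. The hsp-16 family reaches 19.7 on day 3 and 6.499 on day 5, hsp-17 reaches 5.14 and 2.37, and hsp-12.6 reaches 6.09 and 12.5.

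Cytosolic HSP70, HSP110 and HSP90 genes and their co-chaperones refold the proteins that small heat shock proteins hold. On day 3 against day 1, 2 of 15 compared members were called higher, where 5.38% of all compared genes were, and none lower, with a median of 0.35 against 0.04. From day 3 to day 5 none was called, where 17.5% of all compared genes were called in either direction. The 2 were F44E5.4 and F44E5.5, inducible HSP70 genes whose values were identical. Their calls are thus 1 measurement, from which no excess over the background was read. These 2 genes share 1 reading, of 0, 1.06, 13.2, 68.2 and 79.6 FPKM in the order of cooling. They rose 5.17-fold from day 1 to day 3 (3.98 to 6.78) and then stayed high, and the change of the hsp-16 family from day 3 to day 5 was 3.54-fold below theirs (2.84 to 4.403). The constitutive HSP70 gene hsp-1 went from 2952 to 3826 and 4655 FPKM on days 1, 3 and 5, 1.296-fold (1.27 to 1.32) and then 1.217-fold higher (1.195 to 1.24). The protein phosphatase gene pph-5 measured 20.9 FPKM at 20°C and 49.3 on day 3, a ratio of 2.36 with an interval that includes 1 (0.948 to 7.56). The heat-inducible hsp-70 held 0 to 3 counts in every condition and was not compared.

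HSF-1 is the known activator of hsp-16 under heat, so a list of genes around it was read. The compared members were hsf-1, its regulators hsb-1, ddl-1 and ddl-2, and daf-16, pqm-1 and skn-1, which encode other transcription factors. Between days 1 and 3 none of 7 compared members was called, where 12.16% of all compared genes were called in either direction, so a count of 0 is near the background (median 0.21 against 0.04). The gene hsf-1 measured 9.55, 6.12, 16.42, 20.6 and 24.6 FPKM in the order of cooling, and it was called higher and clear on the first day at 4°C, at 2.68-fold above 10°C (1.18 to 7.51) on 88 and 6 counts. Its ratio of day 3 to day 1 was 1.26 (0.948 to 1.67), and day 3 stood 2.16-fold above 20°C (1.219 to 4.17). The call of day 3 against 20°C did not hold under every pseudocount and scaling. The authors named hsf-1 as a gene without a rise of footprints in the cold, unlike the values here. They also saw no rise of an HSF-1 protein fused to EGFP. Footprints on hsf-1 are a share of all footprints, so they report neither the amount of HSF-1 made nor its activity. On the first day at 4°C, 3 of the 7 compared members were called higher, where 17.8% of all compared genes were. Besides hsf-1 these were daf-16 and pqm-1, encoding transcription factors of insulin signalling, at 3.92-fold (1.86 to 9.92) and 15.6-fold (6.03 to 57.6) above 10°C. The listed genes hsb-1, ddl-1, ddl-2 and skn-1 were not called in that step. On day 3 daf-16 and pqm-1 stood 2.97-fold (1.79 to 5.30) and 19.3-fold (7.45 to 71.1) above 20°C.

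Among chaperones of the endoplasmic reticulum and of mitochondria, none of 9 compared members was called from day 1 to day 3 or from day 3 to day 5 (medians 0.07 and 0.03). Over all compared genes 12.16% and 17.5% were called in either direction, so counts of 0 are near the background. The BiP gene hsp-4, a marker of endoplasmic reticulum stress, measured 185, 194, 549, 276 and 282 FPKM in the order of cooling, with its peak on day 1. From day 1 to day 3 it was 1.99-fold lower (1.82 to 2.17), just short of a call, while the hsp-16 family was 19.7-fold higher.

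Genes with the pattern most like that of the hsp-16 family were sought by the root mean square difference between log2(FPKM + 0.5) profiles over the 5 conditions, each centred on its own mean. Among 6264 genes with at least 50 counts the median difference was 1.83. The nearest was the uncharacterised F26A1.8 at 0.24, which held 0, 0, 1, 44 and 10 counts in the order of cooling. M03A1.8 followed at 0.61, F35E8.10 and F35E8.13, which share one reading, at 0.64, and sdz-8 at 0.70. The levels of sdz-8 were 1.97, 2.73, 7.99, 37.0 and 22.6 FPKM. The next were dct-8 at 0.81, H02F09.3 at 0.83 and the metallothionein gene mtl-1, whose product binds metals, at 0.84. In the order of cooling dct-8 measured 7.05, 9.80, 48.4, 270 and 82.5 FPKM and mtl-1 6.49, 9.02, 47.9, 224 and 91.8 FPKM. Both values were higher on day 1 than at 10°C, but on 27 and 29 counts against 1 count each. No interval was computed for that step, so a rise by day 1 was not established for either gene. H02F09.3 held 28 counts on day 1 against 0 at 10°C. These genes were chosen for following the family, so their changes between days were set by the choice and give no separate support. F26A1.8, M03A1.8, F35E8.10 and F35E8.13 reached the limit of 50 counts only through their counts on day 3. Day 3 was above day 1 by between 4.62-fold (sdz-8, 2.69 to 8.46) and 39.2-fold (F26A1.8, 6.68 to 1584) in these 8 genes. Their levels at day 5 lay below those of day 3 by 1.105-fold (F35E8.10 and F35E8.13, 0.624 to 1.96) to 4.51-fold (F26A1.8, 2.24 to 10.1). With 5 points the likeness only describes these columns, and the values at 20°C and 10°C were at most 1 count for each of these 8 genes.

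Tissue markers differed between the same conditions, with 3 markers for each tissue. From day 1 to day 3 the hypodermis sum went from 39.5 to 12.4 FPKM, through col-19 (37.2 to 9.64), while dpy-7 went from 1.97 to 2.45. The intestine sum went from 14.3 to 20.1 FPKM, through elt-2 (5.78 to 14.7), while ges-1 went from 6.01 to 2.58 and vha-6 from 2.46 to 2.84. The pharynx sum went from 7.54 to 18.9 FPKM, with both myo-1 and myo-2 higher and ceh-22 at 0 on both days, and the body wall muscle sum from 105 to 88.8 FPKM, with myo-3 going the other way (6.68 to 8.91). The germline and neuron sums went from 203 to 215 and from 204 to 194 FPKM. From day 3 to day 5 the intestine sum went to 6.66, the pharynx sum to 6.22 and the germline sum to 309 FPKM. The part of such shifts in the hsp-16 values was not tested.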

How the data were processed

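The authors purified monosomes from whole animals, made small RNA libraries from the protected fragments and processed them with the ORFik ribo-seq pipeline, with fastp 0.23.4, STAR 2.7.11b on WBcel235 and DESeq2 1.42.1. The deposited values are FPKM of footprints on coding sequences, 1 column per condition. Not given in the sources used here were the way the 2 libraries were pooled (sum or mean), the annotation release, and the handling of strand and of reads with several matches. The number of columns that matched no sample was 1, and it was not used here.

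Counts were recovered by multiplying FPKM with coding length (Ensembl release 115, stop codon included) and dividing by the value of 1 count. All values came out whole within 0.02 counts. The recovered counts scatter less than independent reads between 20°C and 10°C (mean squared z of 0.485 over 2651 genes with 2 to 4 counts, where 1 would be independent), so intervals are if anything too wide there. Totals count a footprint once per transcript it falls in. Column totals were 675550 at 20°C, 486109 at 10°C, and 2657757, 2981339 and 3058810 at 1, 3 and 5 days of 4°C. Comparison was limited to genes averaging 1 FPKM or more, on log2(FPKM + 0.5), which understates changes of low genes. Ratios carry 95% Clopper-Pearson intervals, levels exact Poisson intervals, ratios of ratios exact conditional intervals, and a count of 0 a limit of 3 counts.

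Genes named beyond the members were list members changed at least 2-fold on day 3 against day 1 or 20°C under every pseudocount and scaling with at least 10 counts (at most 12), hsf-1, hsp-4, the 8 genes nearest in profile and genes within 5 kb. The genes hsp-1, hsp-70, sip-1, Y46H3A.5 and F21C10.10 were added after values were seen. Members and lists were chosen with earlier results of these data known. Of the list items, daf-21 (a second name of hsp-90), C01G10.8 and hsf-2 matched no row by name. Intervals and calls were run on simulated independent Poisson counts. These follow the model that the intervals assume, so the run checks the code and not how well that model holds here. Alternatives covered pseudocounts, scaling, filters, the call rule, the transcript and the limit. Scripts ran in Python 3.11.15 with pandas 2.3.3, NumPy 2.4.6, Matplotlib 3.10.9 and SciPy 1.17.1.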

Additional observations from a re-analysis of the deposited data

How the results depend on the processing

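No paired analysis was possible because the table holds 1 pooled column per condition, and leaving out a replicate could not be run for the same reason. The number of hsp-16 readings called changed by a factor of at most 1.5 with the pseudocount, the longest transcript or scaling in any comparison. A pseudocount of 1 FPKM left 2 called in each of the first 2 steps, in place of 3. Median-of-ratios scaling left 3 called higher on day 5 against 20°C. At a 4-fold call the step from 10°C to day 1 reversed, to 1 reading called, hsp-16.41 lower on 1 count against 0, and the step from day 3 to day 5 kept 1. The clear call left 0 readings in each of the first 2 steps, 2 on day 3 against 20°C and 2 on day 5 against 20°C. Family ratios stayed inside their counting intervals under both other scalings and with every gene row counted. With a limit of 1 count in place of 3, hsp-16.41 on day 3 stood 8.91-fold above the limit for day 1 and 2.27-fold above that for 20°C. Median-of-ratios scaling shifted all genes by −0.18 on day 3 and −0.20 on day 5 against 20°C, and leaving out the 50 genes with the most counts by −0.13 and −0.17, on the log2 scale.

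Counts over all genes depended on the filter and the rule. Without a filter on low values the calls numbered 3622 at 10°C against 20°C, 5008 at day 1 against 10°C, 2140 at day 3 against day 1 and 2626 at day 5 against day 3. With a mean of at least 5 FPKM these were 808, 1480, 543 and 833, and 2105 and 2599 on days 3 and 5 against 20°C. The clear call gave 46, 795, 539 and 881, and 1653 and 1969 against 20°C. Depth limits all values at 20°C and 10°C, where the hsp-16 readings held at most 3 counts each.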
